A study of Mus musculus with 2 samples.

Results

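The genes described here are 8 regulators that set the identity and the fuel use of the kidney proximal tubule: the nuclear receptors Hnf4a, Hnf4g, Ppara, Esrra, Rxra and Nr1h4, the coactivator Ppargc1a and the leucine zipper factor Maf. They were taken by name, as every probe set whose platform symbol is one of these, which gave 27 probe sets for 8 of the 18193 genes named on the array. Whole kidney RNA was measured on 2 Affymetrix arrays, 1 per group. The control kidney came from mice with normal Invs alleles (+/+) that carried the transgene inv-deltaC::GFP, a green fluorescent protein fusion of inversin that lacks the C-terminus. The cystic kidney came from mice homozygous for the inv mutation (inv/inv) that carried the same transgene, a model of nephronophthisis type 2 that forms renal cysts without reversal of the body's left and right sides. Both groups therefore carried the transgene for truncated inversin, and no kidney without the transgene was compared. The mice were 4 weeks old by the series design, the labels of the cystic array add 28 days and a female sex, and those of the control array give no sex. The sources used here do not name the promoter that drives the transgene or the number of animals behind an array.

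The proximal tubule reclaims most of the filtered glucose, amino acids and phosphate and pays for this by burning fatty acids in mitochondria. HNF4A, which binds DNA as a homodimer, is required for proximal tubule cells to mature and to switch on their transporters, and HNF4G is its paralog. PPARA senses fatty acids and switches on their oxidation, ESRRA is an orphan receptor that drives mitochondrial genes, and PPARGC1A is the coactivator that docks on both and on HNF4A. RXRA is the shared partner with which PPARA and NR1H4, the bile acid receptor also called FXR, form heterodimers. MAF is a large leucine zipper factor expressed in differentiating tubules and also in macrophages.

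Upstream sequences were available from RefSeq for 6 of the 8 genes, as 8 start sites on the GRCm38.p6 assembly, and not for Hnf4g and Maf. Those shown belong to the members with the lowest ratios, Nr1h4 and Hnf4a, and to the coactivator, and each holds a marked match. Of the Hnf4a start sites, only the one with matches is shown. Each is given as the 250 bases before the start on the strand of the gene, 5′ to 3′. Capitals mark GTTAAT, or its reverse complement ATTAAC, which is one arm of the site bound by the HNF1 factors, and CGTCA, the reverse complement of TGACG, which is the core of the site bound by CREB.
Hnf4a, chr2:163546905-163547154, plus strand: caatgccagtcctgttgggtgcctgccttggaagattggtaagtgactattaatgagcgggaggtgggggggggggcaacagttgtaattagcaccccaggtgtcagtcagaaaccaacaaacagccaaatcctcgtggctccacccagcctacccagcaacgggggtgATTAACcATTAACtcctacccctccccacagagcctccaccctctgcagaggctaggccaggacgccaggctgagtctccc
Nr1h4, chr10:89506659-89506908, minus strand: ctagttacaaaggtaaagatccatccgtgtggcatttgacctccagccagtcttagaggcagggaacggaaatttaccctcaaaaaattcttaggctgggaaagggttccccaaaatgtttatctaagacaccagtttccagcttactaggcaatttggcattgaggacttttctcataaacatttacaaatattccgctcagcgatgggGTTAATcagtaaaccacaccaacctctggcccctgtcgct
Ppargc1a, chr5:51567726-51567975, minus strand: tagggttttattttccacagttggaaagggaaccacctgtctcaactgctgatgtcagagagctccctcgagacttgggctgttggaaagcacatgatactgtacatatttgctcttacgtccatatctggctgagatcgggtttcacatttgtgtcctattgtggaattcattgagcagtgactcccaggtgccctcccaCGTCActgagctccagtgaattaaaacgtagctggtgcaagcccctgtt
Both arms in the Hnf4a sequence stood in the same orientation, beginning 81 and 74 bases before the start. The Nr1h4 arm began 40 bases before the start, and the CREB core of Ppargc1a 49 bases before it. On either strand, GTTAAT was found in 2 of the 8 member sequences and in 6.43% of the 32851 sequences of all genes, and TGACG in 2 of 8 (Ppargc1a and Ppara) and 17.8% of all. The other Hnf4a start site, at chr2:163506607-163506856, had neither.

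Longer sites were searched on both strands and found in none of the 8. They were GTTAAT and ATTAAC set 1 base apart (the full HNF1 palindrome, which contains the arm above), CAAAGTCCA (an HNF4 site), AGGTCA repeated after 1 base (the direct repeat bound by HNF4 and by PPARA with RXRA), TCAAGGTCA (an ESRRA site, which contains AGGTCA) and AGGTCA followed after 1 base by TGACCT (the inverted repeat bound by NR1H4 with RXRA). In that order they occurred in 0.00913%, 0.384%, 0.0335%, 0.387% and 0.00609% of all sequences. A match or its absence is a description of letters only. Base composition differed among the members: GC made up 44.4% of the Nr1h4 window, 48% of the Ppargc1a window and 57.6% of the Hnf4a window shown, against 68.4% for Esrra, 76.4% for Ppara and 81.2% for 1 of the 2 Rxra starts. The other Rxra and Hnf4a starts had 55.2% and 51.2%. The median over all genes was 52.4%.

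The signal is a linear MAS5 intensity, with 2% trimmed means of 178 on the control and 181 on the cystic array. The median signal of an array served as its floor, at 55.4 and 61.9. A probe set under both floors was treated as not measured, and one under a single floor gives a bound. Ratios are log2, cystic minus control, and a gene takes its brightest probe set. With 1 array per group there is no spread between replicates and no test, so a gene was counted as changed at 2-fold. Different probe sets of a gene, read from the same RNA, gave log2 ratios with a pooled SD of 0.29 over 4694 genes, which is a technical spread only.

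Labels were checked first. The brightest of 3 Invs probe sets read 118 on the control and 15.9 on the cystic array, at least 1.91-fold lower, and the others were under both floors. Whether the transgene supplies the stretch that they read was not examined. Xist, the RNA that coats the inactive X chromosome of females, read 387 on the control and 57.4 on the cystic array at its brightest probe set, with 281.6 and 2.3 at the next, so the array labelled female had Xist under its floor. The Y-linked genes Eif2s3y, Kdm5d and Uty were above the floor on both arrays in 6 probe sets, with signals between 65.9 and 205.7. The control array thus had both Xist and Y-linked signal, and the cystic array had Y-linked signal with Xist under its floor. The female label of the cystic array goes against these signals, and the sex of the animals behind each array was not settled. Many genes of the mouse proximal tubule differ between the sexes, and the part of sex in the differences below was not tested and, with 1 array per group, cannot be told apart from the genotype.

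All 8 regulators had a lower signal in the cystic kidney at their brightest probe set, by log2 ratios from -1.26 to -0.14. Nr1h4 alone was lower at least 2-fold there. Hnf4a was just short of that limit at its brightest probe set and past it at 2 of its 4. Of all 12014 measured genes, 3.78% were lower and 7.06% higher at least 2-fold, and 42.1% had a ratio below 0. No regulator was higher at least 2-fold. The median of the 8 regulators was -0.64, beside 0.09 over all measured genes. At 1.5-fold, 5 of the 8 were lower (Hnf4a, Hnf4g, Ppara, Esrra and Nr1h4), against 10.8% of all genes, and none was higher, against 16.4%. Of these, Hnf4g is a bound, and the dimmer Esrra probe set had 0.20. The 8 were chosen with earlier results of these data known, so their shares are a description only. Beside them, proximal tubule markers had a median of -1.15, and markers of macrophages, tubular injury and fibroblasts were higher. In whole kidney RNA, fewer proximal tubule cells and less of a transcript per cell cannot be told apart.

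Of the 27 probe sets, 24 were measured, 23 above the floor on both arrays and 1 as a bound. Among the 24, 20 had ratios below 0 and 4 above, while 40.2% of all measured probe sets were below 0. Those lower at least 2-fold numbered 3, and none was higher at least 2-fold, against 3.21% and 6% of the 24332 measured probe sets of the whole array. At 1.5-fold 11 were lower, against 9.45% of all probe sets, and none was higher, against 15.7%. Of the probe sets past the 2-fold limit, those nearest to it belonged to Hnf4a (2.19-fold and 2.38-fold lower). Of those short of it, the nearest belonged to Ppara (1.99-fold lower) and Hnf4a (1.96-fold lower). A 2-fold count therefore divides probe sets whose ratios differ by less than the spread between probe sets.

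**Figure D1:**
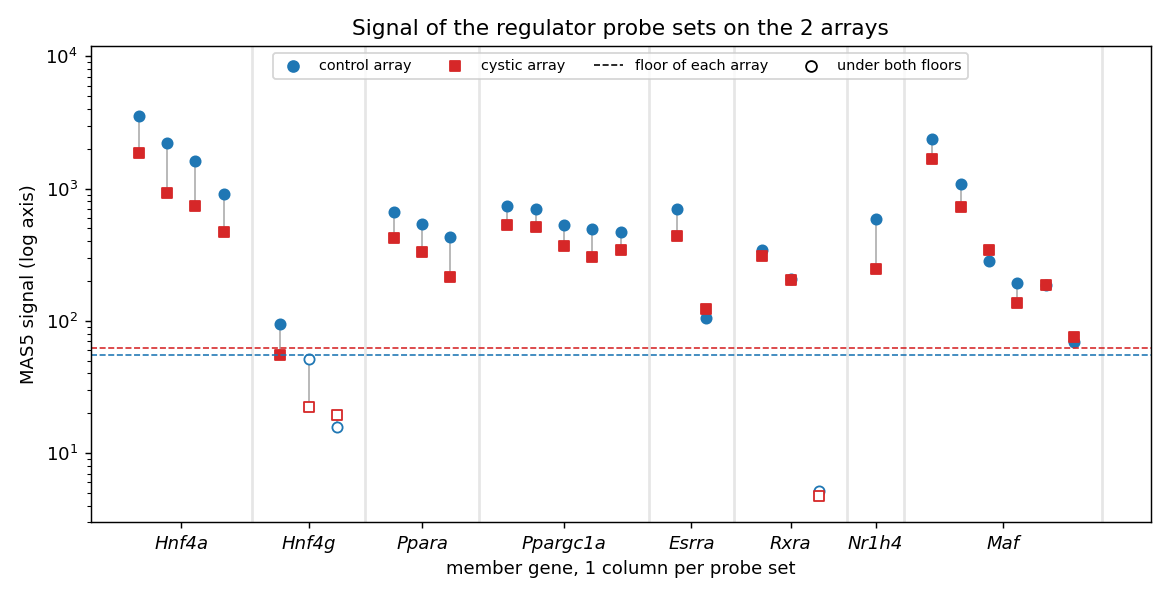
MAS5 signal (log axis) of each of the 27 probe sets of the 8 regulators, 1 column per probe set, in the control kidney (blue circles) and the cystic kidney (red squares), with the floor of each array dashed and open symbols for the 3 probe sets under both floors. All 4 Hnf4a pairs, all 3 Ppara pairs and all 5 Ppargc1a pairs have the cystic signal below the control signal, while the Rxra pairs nearly coincide and the Maf pairs go both ways.

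Hnf4a, the master regulator of the proximal tubule program, was read by 4 probe sets that moved together. Its brightest, 1427001_s_at, went from 3559.4 in the control kidney to 1861.6 in the cystic one, a log2 ratio of -0.94. Probe set 1421983_s_at went from 2217.6 to 932.9 (-1.25), and 1427000_at from 1627.3 to 743.7 (-1.13). The dimmest, 1450447_at, read 916.2 and 468, a ratio of -0.97. Probe sets 1427001_s_at and 1421983_s_at are of a class whose probes may bind other transcripts, while 1427000_at and 1450447_at are not. At all 4 the cystic signal was between 42.1% and 52.3% of the control signal, and the SD of the 4 ratios was 0.15, under the pooled spread between probe sets. Of the measured genes, 4.34% had a ratio as low as that of the brightest Hnf4a probe set.

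Its paralog Hnf4g was near the limit of what these arrays can read. Probe set 1450518_at read 95 in the control and 55.2 on the cystic array, a value below the floor that makes Hnf4g at least 1.53-fold lower. The other probe sets read 51.3 and 22.5, and 15.8 and 19.5, under both floors, and give no direction. Compared at these probe sets, both Hnf4 genes were lower, but the size of the Hnf4g difference is not known.

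Nr1h4, the bile acid receptor, had the lowest ratio of the 8 and a single probe set. Its signal went from 591.7 to 247.5, a log2 ratio of -1.26 or 2.39-fold lower, and 2.06% of all measured genes had a ratio as low. No second probe set was there to repeat it.

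Ppara, the fatty acid receptor, was lower at each of 3 probe sets without passing 2-fold. The brightest, 1449051_at, read 665.4 and 421 (-0.66). Probe set 1439675_at read 539.4 and 333.6 (-0.69), and 1457721_at read 429.2 and 215.6 (-0.99). The cystic signal was thus 50.2% to 63.3% of the control signal, and the SD of the 3 ratios was 0.18.

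Ppargc1a, the coactivator of PPARA, ESRRA and HNF4A, was lower at each of 5 probe sets, and none of the 5 passed 2-fold. Its brightest probe set, 1456395_at, went from 739.5 to 529.9 (-0.48). The next 2 went from 697.8 to 516.9 (-0.43) and from 526.5 to 370.3 (-0.51). The dimmest, 1434099_at, read 466.8 and 343.8 (-0.44), and 1434100_x_at, of a class whose probes may bind other transcripts, read 497.2 and 303.4 (-0.71). The SD of the 5 ratios was 0.11, and 1 of the 5 was past 1.5-fold.

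Esrra, the orphan receptor of mitochondrial genes, was read by 2 probe sets that disagreed in sign. The brighter, 1460652_at, read 701.3 and 436.5 (-0.68), short of 2-fold. The dimmer, 1442864_at, read 105.8 and 121.9 (0.20). Their ratios differed by more than 2 times the pooled SD between probe sets, so the Esrra value depends on the probe set, and the median of both was -0.24.

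Rxra, the heterodimer partner, differed least of the 8. Probe set 1454773_at read 343.7 and 311.6 (-0.14), and 1425762_a_at read 207.1 and 203.6 (-0.02). A further probe set, with 5.2 and 4.7, was not measured. Both ratios lay within the spread between probe sets of a gene.

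Maf was read by 6 probe sets that went both ways. The brightest, 1456060_at, went from 2385.8 to 1661.3 (-0.52), the next, 1437473_at, from 1083.7 to 725.1 (-0.58), and 1447945_at from 192.5 to 137.3 (-0.49). The others did not share that direction: 1447849_s_at read 282.1 and 345.7 (0.29), 1444073_at read 69.8 and 75.3 (0.11), and 1435828_at read 185.5 and 186.5 (0.01). The median of the 6 ratios was -0.24, and those of 0.11 and 0.01 lay within the pooled SD between probe sets. Macrophages, which also express Maf, had higher markers on the cystic array. Of 17 measured markers, 14 were at least 2-fold higher, against 7.06% of all genes, and the summed signal of the 17 went from 2372 to 11519. The part of macrophages in the Maf values was not tested, and no probe set was tied here to a Maf isoform.

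**Figure D2:**
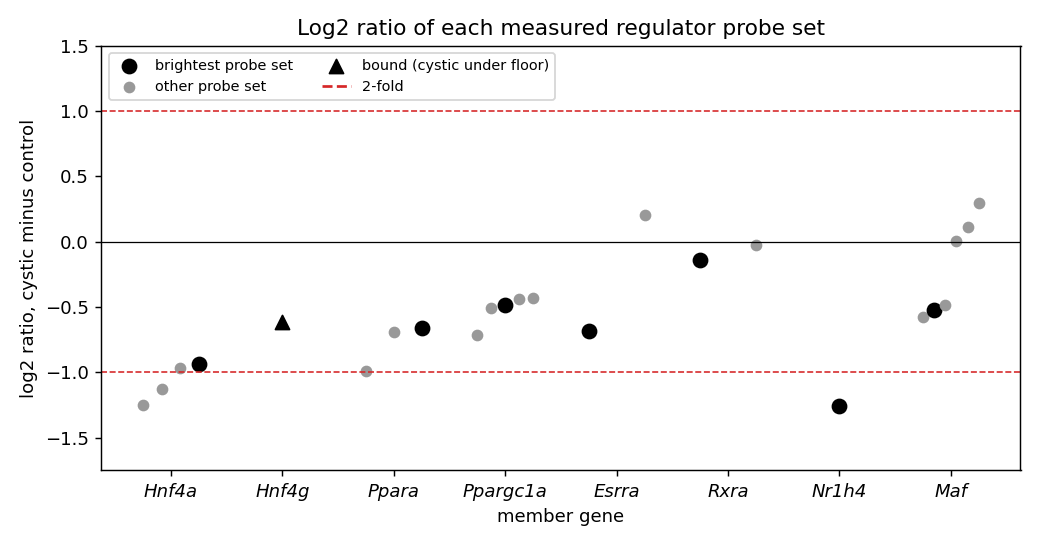
Log2 ratio (cystic minus control) of the 24 measured probe sets by gene, with the brightest probe set of each gene in black, the others in grey, the Hnf4g bound as a triangle, and the 2-fold limits dashed. Hnf4a and Nr1h4 lie around the lower limit, Ppara and Ppargc1a lie wholly below 0, and Esrra and Maf have probe sets on both sides of 0.

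In order of their ratios the 8 were Nr1h4 (-1.26), Hnf4a (-0.94), Esrra (-0.68), Ppara (-0.66), Hnf4g (a bound of -0.62), Maf (-0.52), Ppargc1a (-0.48) and Rxra (-0.14). No step between neighbours was wider than 0.34, close to the pooled SD of 0.29 of single ratios. The order also moved with the probe set taken: with the median over probe sets Hnf4a had -1.05, Maf and Esrra -0.24 and Rxra -0.08. Neighbours are therefore not told apart.

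**Figure D3:**
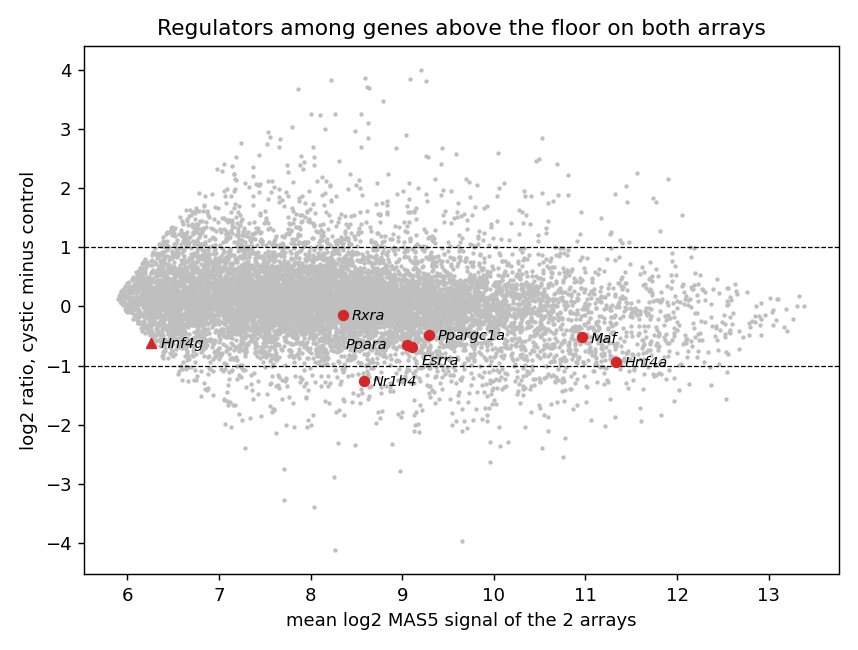
Log2 ratio against mean log2 MAS5 signal for the 10668 genes that passed both floors (grey) with the 8 regulators in red, the Hnf4g bound as a triangle and the 2-fold limits dashed. All 8 regulators lie below 0, with Nr1h4 past the lower limit and Hnf4a and Maf at the right, among genes of high signal.

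By signal on the 2 arrays, the genes closest to Hnf4a were Slc5a12 (3439.1 and 1899.9), Aldh1l1 (3439.5 and 1811.2) and Slc17a1 (3362.3 and 1859), at distances of 0.06, 0.06 and 0.08 on the log2 scale. The genes closest to Nr1h4 were Tmed6 (573.7 and 251.3), B3galnt1 (590 and 262.3) and Idi1 (602.7 and 263.5), at distances of 0.05 to 0.09. With 2 arrays such closeness says only that both signals were alike.

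The rest of the nuclear receptor family had a median near that of all genes. Of 42 other receptors listed, 24 were measured. Of those, 1 (4.17%) was lower at least 2-fold, near the 3.78% of all genes, and none was higher, against 7.06%. Below 0 were 11, against 42.1% of all genes, and the median was 0.04, beside 0.09 for all genes. The one past 2-fold was Esr1, an estrogen receptor (448.1 to 211.5, -1.08, second probe set -0.67). Vdr, the vitamin D receptor of the tubule, had -0.85, and Nr3c2, the mineralocorticoid receptor, -0.81. Among paralogs of the members, Rxrb had 0.08, Ppard 0.14 and Esrrb 0.15, and Esrrg had -0.58 (second -0.10). Rara, a retinoic acid receptor, Nr4a1, an early response receptor, and Nr2c1, an orphan receptor, had 0.56, 0.62 and 0.72.

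Among 20 measured coactivators and corepressors 1 (5%) was lower at least 2-fold, near the 3.78% of all genes. None was higher, against 7.06%, and the median was 0.16. The 1 lower gene was Ppargc1b, the closest relative of Ppargc1a, which went from 642.8 to 253.7 (-1.34). Lpin1, which coactivates PPARA together with PPARGC1A, had -0.85 (second -1.24). Pprc1, the third member of the PPARGC1 family, had 0.82, so that the family members had ratios of both signs. The general coactivators Ncoa1 and Ncoa2 had -0.05 and -0.01, and Crebbp and the arginine methyltransferase Prmt1 had 0.53 and 0.80. Of the relatives of Maf, Mafg, Mafk and Maff were measured, with -0.02, 0.62 and a bound of 0.76, and none was past 2-fold.

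Genes known as targets of these regulators were set beside them, from lists written with earlier results of these data known. In the HNF4A list 9 of 25 genes were measured, with a median of -0.80. Of the 9, 4 (44.4%) were lower at least 2-fold, against 3.78% of all genes, and none was higher, against 7.06%. The 4 lower genes were the organic anion transporter Slc22a6 (1713.1 to 409.6, -2.06), the apolipoprotein Apom (-1.53), Pck1, the entry enzyme of gluconeogenesis (4502.5 to 1905.2, -1.24), and the anticoagulant protease Proc (-1.20). G6pc, the last enzyme of glucose release, had -0.80. Slc22a6 is also among the proximal tubule markers, of which 66.7% were lower at least 2-fold. Whether the target genes differed apart from the rest of that segment was not tested, for this list or the lists below. Of the 9, 3 were bounds, and the bound of Apob, at 0.07, shows no rise.

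In the PPARA list 6 of 29 measured genes (20.7%) were lower at least 2-fold, against 3.78% of all genes. Higher was 1 (3.45%), against 7.06%, and the median was -0.52. Among the 6, Cpt2 had -1.30 at its brightest probe set but 0.42 at its second. Slc27a2, also on this list, is among the proximal tubule markers. The fatty acid transporter Cd36 had -1.61 (second -0.94), the peroxisomal enzyme Ehhadh went from 3031.4 to 1002.9 (-1.60), and the medium-chain dehydrogenase Acadm from 7104.1 to 2848.5 (-1.32). Cyp4a12a, a fatty acid hydroxylase, was at least 2.65-fold higher (44.1 to 147), and Pdk4, a brake on pyruvate use, had 0.65. Angptl4, a secreted lipase inhibitor, had 0.31. Cyp4a14, also on the list, went the other way (3047.4 to 1344.1, -1.18). Some Cyp4a genes are close copies of one another, so their separate values are uncertain, and Cyp4a12a is known as a male-biased gene of the mouse kidney.

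Targets of PPARGC1A and ESRRA lay below 0 in 22 of 24 measured genes, against 42.1% of all genes. Of the 24, 1 (4.17%), Acadm, was lower at least 2-fold, near the 3.78% of all genes. The median was -0.40. Sod2, the mitochondrial superoxide dismutase, had -0.82 and Ndufs1, a subunit of complex I, -0.81. Nrf1, a factor that drives respiratory genes, had 0.58. Enzymes of NAD synthesis, a pathway that PPARGC1A drives in the kidney tubule, had a median of -0.69. Of 10 measured genes, 4 (40%) were lower at least 2-fold, against 3.78% of all genes, and none was higher, against 7.06%. Afmid had -3.28 (651.7 to 67.3, second probe set -1.71), Haao -1.78, Kynu -1.41 and Kmo -1.09, all of the route from tryptophan. Nmnat3, a late enzyme of all routes, had 0.20.

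Of 8 measured genes on the NR1H4 list, 2 (25%) were lower at least 2-fold, against 3.78% of all genes. Higher was 1 (12.5%), against 7.06%, and the median was -0.12. The 2 lower genes were Slc51b (257.7 to 104, -1.31) and Slc51a (729.6 to 298.6, -1.29), which encode both subunits of the bile acid exporter of the basolateral membrane. Pltp, a phospholipid transfer protein, was higher (369 to 795, 1.11), with 0.90 at its second probe set, short of 2-fold. Aqp2, the water channel of the collecting duct, had 0.29, and Kng1, a kininogen, 0.21.

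**Figure D4:**
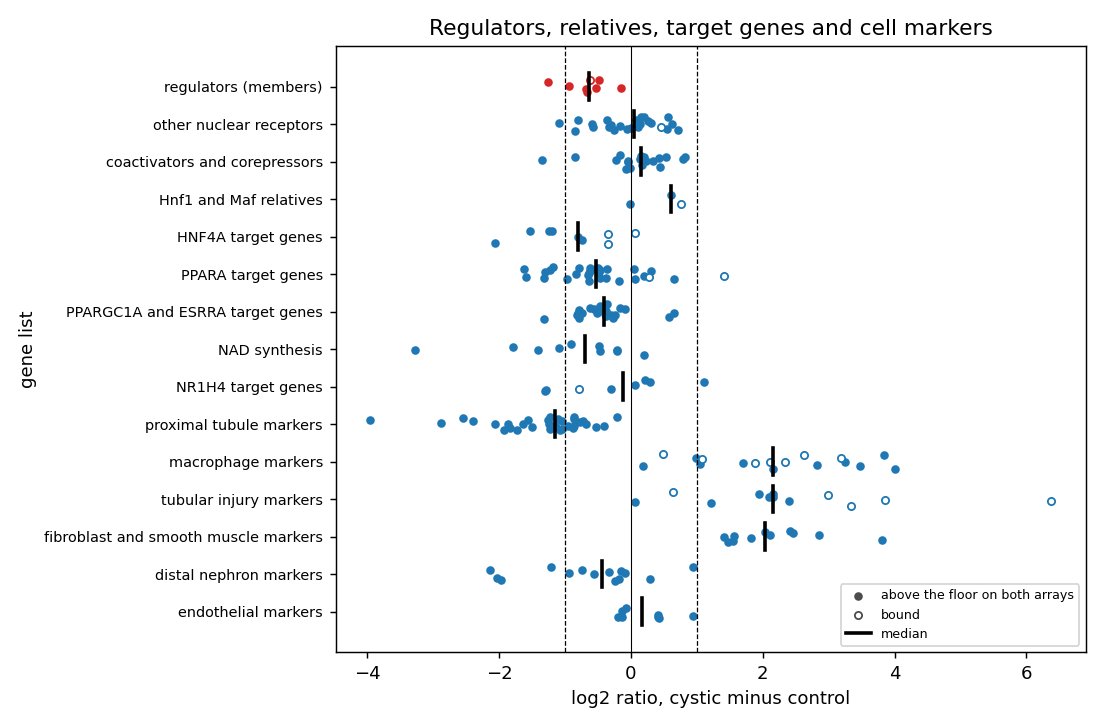
Log2 ratio of each measured gene in the 14 companion lists (blue) and of the 8 regulators (red, top row), with bounds as open circles, medians as black bars and the 2-fold limits dashed. The median of the regulators, -0.64, lies between that of the proximal tubule markers, -1.15, and that of the other nuclear receptors, 0.04.

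Proximal tubule markers were read on the same arrays. All 33 measured proximal tubule markers had ratios below 0 and 22 were lower at least 2-fold, against 3.78% of all genes, with a range from -3.96 for Slc7a13, an amino acid transporter, to -0.21 for Kap. Their summed signal went from 138660 to 65440. The median of the 33 was -1.15, beside -0.94 for Hnf4a. The endocytic receptor Lrp2 and the phosphate transporter Slc34a1, both defining for the segment and named after their values were seen, had -1.22 and -0.72. Distal nephron markers had a median of -0.44 with 4 of 14 (28.6%) lower at least 2-fold, led by Slc4a1, the anion exchanger of intercalated cells (-2.14). Endothelial markers had a median of 0.17 with none of 8 past 2-fold. Injury markers were higher at least 2-fold in 10 of 12 and markers of fibroblasts and smooth muscle in 11 of 11, against 7.06% of all genes. The medians of these 2 lists were 2.16 and 2.04. The part of these marker differences in the regulator values was not tested.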

How the data were processed

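Total kidney RNA was labelled with biotin and hybridised to 2 arrays. Per the labels, the authors used MAS5 (version and scaling target not given in the sources used here). Each deposited value is a linear intensity of 1 probe set, without a detection call. Precision is limited by the number of arrays, 1 per group.

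Of 45101 probe sets, 64 controls were left out. Names came from the platform annotation, updated by gene identifier through a RefSeq table of GRCm38.p6: 34945 probe sets named 1 gene (34741 found in the table), 932 several and 9160 none. The deposited scaling was kept, signals under an array's median were raised to it, and a gene was represented by its brightest probe set (mean log2 signal after the floor). Signals under 0.1 were set to 0.1 before logs. Python 3.11.15, pandas 2.3.3 and statsmodels 0.14.6 (loess) were used, and the steps were tested on simulated data. The alternatives changed the floor, the scaling, the probe set taken and the fold limit.

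The 8 members and the 14 lists (281 genes) were chosen with earlier results of these data known. Beside the members, the rule for named genes allowed, per list, up to 3 measured genes furthest below 0 and up to 3 above, all genes of lists with under 5 measured, the named relatives of members, and the 3 genes nearest in signal to the brightest and the most changed member. A few others (Ncoa1, Ncoa2, Proc, G6pc, Cpt2, Slc27a2, Cyp4a14, Kmo, Kap, Lrp2, Slc34a1 and those of the label check) were chosen after their values were seen. Promoter windows came from RefSeq, and 7 motifs were searched on both strands.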

Additional observations from a re-analysis of the deposited data

How the results depend on the processing

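The median of the 8 regulators, -0.64, lay between -0.80 (median centring) and -0.55 (median over probe sets) under the 8 alternatives that could change it. The count lower at least 2-fold, 1, became 2 with median centring, with the median over probe sets and without shared probe sets, each time by adding Hnf4a, whose ratio ranged from -1.13 to -0.77, and 5 at a limit of 1.5-fold. It stayed at 1 with other floors, no floor, quantile normalization and loess. None was higher at least 2-fold under any of the 9 settings. Of 64 single values, 62 moved by less than the spread between probe sets. The exceptions were Hnf4g, at 0.09 with the floor at the 60th percentile, where its cystic signal is under the raised floor and the value shows no rise, and Esrra, at -0.24 with the median over its 2 probe sets. Over all genes, 848 were higher and 454 lower at 2-fold; these became 2105 and 1691 with no floor, 1970 and 1297 at 1.5-fold, and 609 and 672 with median centring, which moved the median of all genes from 0.09 to -0.07. The medians of the other nuclear receptors (-0.12 to 0.10), coactivators, endothelial markers (-0.13 to 0.28) and NR1H4 targets (-0.28 to 0.14) changed sign between settings; those of proximal tubule markers (-1.31 to -0.99), HNF4A targets (-1.22 to -0.74) and PPARA targets (-0.68 to -0.48) did not. No paired analysis was possible because each group has 1 array. Signals near the floor, as for Hnf4g, limit what can be read.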
